A study of Arabidopsis thaliana with 12 samples.

Results

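Rubisco and the enzymes of the Calvin cycle were followed through 10 nuclear genes of Arabidopsis thaliana, picked by gene identifier. They are the 4 genes of the Rubisco small subunit, RBCS1A (AT1G67090), RBCS1B (AT5G38430), RBCS2B (AT5G38420) and RBCS3B (AT5G38410), the Rubisco activase gene RCA (AT2G39730), the subunit genes GAPA (AT3G26650) and GAPB (AT1G42970) of plastid glyceraldehyde-3-phosphate dehydrogenase, and the genes of phosphoribulokinase (PRK, AT1G32060), sedoheptulose-1,7-bisphosphatase (SBPASE, AT3G55800) and plastid fructose-1,6-bisphosphatase (CFBP1, AT3G54050, named HCEF1 in the RefSeq annotation). All 10 of the 33610 genes counted were present, and all 10 were among the 20715 genes that reached an FPKM (fragments scaled by transcript length and by the mapped total of the library) of 1 in at least 3 libraries and were tested.

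The study asked how the transcription factor bZIP17, which is released from the membrane of the endoplasmic reticulum under stress, takes part in the heat response of reproductive tissue. Unopened flower buds were collected from wild-type (WT) plants of accession Columbia-0 and from plants of a single T-DNA insertion line, bzip17, in the same background. Plants at flowering had spent 6 h at 38 °C or had stayed at 22 °C, which gave 4 groups (WT at 22 °C, WT at 38 °C, bzip17 at 22 °C and bzip17 at 38 °C) of 3 biological replicates, each a pool of buds from 8 plants grown under 16 h of light and 8 h of dark. RNA of the whole bud was sequenced, so that fewer green cells and less of a transcript per green cell cannot be told apart in any value below.

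The Calvin cycle fixes CO2 in the chloroplast stroma. Rubisco joins CO2 to ribulose-1,5-bisphosphate, its large subunit is encoded in the plastid and its small subunit in the nucleus, and Rubisco activase frees its active sites from bound inhibitors, a step known for its sensitivity to moderate heat in leaves. Glyceraldehyde-3-phosphate dehydrogenase then carries out the reduction step, and the 2 bisphosphatases and phosphoribulokinase regenerate the acceptor. Several of these enzymes are switched on in the light through thioredoxin. In flower buds the green sepals and young carpels are the usual site of these transcripts.

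The total count of a library ranged from 38584506 to 71779333, but ribosomal RNA loci took 1.43% to 64.8% of it. Of the 12 libraries, 4 were over 10% (WT at 22 °C replicates 2 and 3, WT at 38 °C replicate 1 and bzip17 at 22 °C replicate 1). Results of single members are given with and without them where the call depended on them. The targeted gene itself, bZIP17 (AT2G40950), had 31.7 to 51.1 CPM (counts per 1000000 counts, scaled by the trimmed mean of M values, TMM) in the 6 WT libraries and 3.50 to 10.3 CPM in the 6 bzip17 libraries. The 7 floral organ identity genes used as markers of flower tissue were all detected, with summed levels of 287.6 to 902.7 CPM. The 10 members together took 0.761% to 1.68% of the counts outside ribosomal RNA.

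The small subunit is encoded by a single gene on chromosome 1 and by a tandem of 3 genes on chromosome 5, and the copies are shown here because reads must tell them apart. In the deposited coordinates (TAIR10, minus strand) RBCS1A spans chr1:25048158-25049424, while RBCS3B (chr5:15377173-15378416), RBCS2B (chr5:15380945-15382035) and RBCS1B (chr5:15384117-15385247) follow one another. Over aligned coding bases in the TAIR10.1 RefSeq assembly RBCS1A was 90.4% to 90.6% identical to each of the other copies, whereas the 3 tandem copies were 96.7% to 97.3% identical to one another. The stretch of 90 coding bases with the most differences lies at coding positions 16 to 105 of each gene, in the part that encodes the chloroplast transit peptide. In the following lines, capitals mark the 23 positions at which the 4 copies are not all alike.
RBCS1A: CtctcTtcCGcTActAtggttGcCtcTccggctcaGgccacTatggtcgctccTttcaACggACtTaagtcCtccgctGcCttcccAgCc
RBCS1B: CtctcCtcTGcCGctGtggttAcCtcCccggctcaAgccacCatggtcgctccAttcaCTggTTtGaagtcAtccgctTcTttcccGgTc
RBCS2B: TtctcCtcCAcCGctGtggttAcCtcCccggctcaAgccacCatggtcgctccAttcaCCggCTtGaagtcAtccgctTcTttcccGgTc
RBCS3B: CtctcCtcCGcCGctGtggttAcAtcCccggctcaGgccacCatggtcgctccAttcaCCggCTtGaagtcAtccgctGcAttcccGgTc
Of the coding windows of 100 bases, 0% in RBCS1A and 0% in RBCS2B occurred in another copy, but 30% in RBCS1B and 30% in RBCS3B did. Of windows of 50 bases, 3.64% in RBCS1A, 51.9% in RBCS1B, 38% in RBCS2B and 42.5% in RBCS3B occurred in another copy. A read over 100 coding bases of RBCS1A thus has a single origin among the 4 copies, while the split of reads between RBCS1B and RBCS3B is uncertain. For shorter reads the split is uncertain for RBCS2B as well.

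The regions before the coding start carry short elements known from light-regulated plant genes. The G-box CACGTG occurred within 300 bases before the coding start of 6 of the 10 members and of 6.23% of 27443 nuclear genes. The I-box GATAAG, on either strand, occurred in 7 of 10 members and in 15.4% of genes, and both together in 4 of 10 and in 1.06%. The G-boxes are shown with 12 bases on either side, in the direction of the gene, with the box in capitals, and with its first base at 259 (RBCS1A), 216 (RBCS2B), 217 (RBCS3B), 251 (RCA), 130 (SBPASE) and 136 (CFBP1) bases before the coding start.
RBCS1A: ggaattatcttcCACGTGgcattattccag
RBCS2B: ggagttttctgcCACGTGatcttatcctag
RBCS3B: ggagttttctgcCACGTGgccttatcctag
RCA: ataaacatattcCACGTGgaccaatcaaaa
SBPASE: ttcagttactgcCACGTGtcactctgaccg
CFBP1: taagagcaaagcCACGTGtcataacacaag
The windows of RBCS2B and RBCS3B are nearly the same, and the motif in SBPASE lies inside the deposited gene model. In the 4 small subunit genes the I-box nearest to the coding start was followed by a similar stretch, alike in RBCS1B, RBCS2B and RBCS3B and differing at 1 base in RBCS1A.
RBCS1A: gcggttcaagccGATAAGggtctcaacacc
RBCS1B: aaagaaagataaGATAAGggtgtcaacacc
RBCS2B: gtggtccaaatcGATAAGggtgtcaacacc
RBCS3B: gtggtgcgtaccGATAAGggtgtcaacacc
A match to these letters describes the sequence and is not evidence that a factor was bound in these buds. Neither motif was present in the window of PRK, nor a G-box in those of RBCS1B, GAPA and GAPB.

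Among the members RBCS1A was the most abundant per transcript length in 12 of 12 libraries. On the FPKM scale it ranked from 2 to 7 among 33595 genes outside ribosomal RNA, and RBCS3B ranked from 5 to 52. The order RBCS1A, RBCS3B, RBCS1B, RBCS2B held in 12 of 12 libraries, with a ratio of RBCS1A to RBCS3B of 1.23 to 3.95. Below the small subunits, RCA and GAPA exchanged places (GAPA was above RCA in 8 of 12 libraries), and so did SBPASE and CFBP1 at the bottom (SBPASE was above CFBP1 in 6 of 12). GAPB was below RCA and above PRK, and PRK above SBPASE, in 12 of 12 libraries. The members thus spread from one of the most abundant messages of the bud to SBPASE and CFBP1, which ranked no higher than 1015 and 1203.

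**Figure D1:**
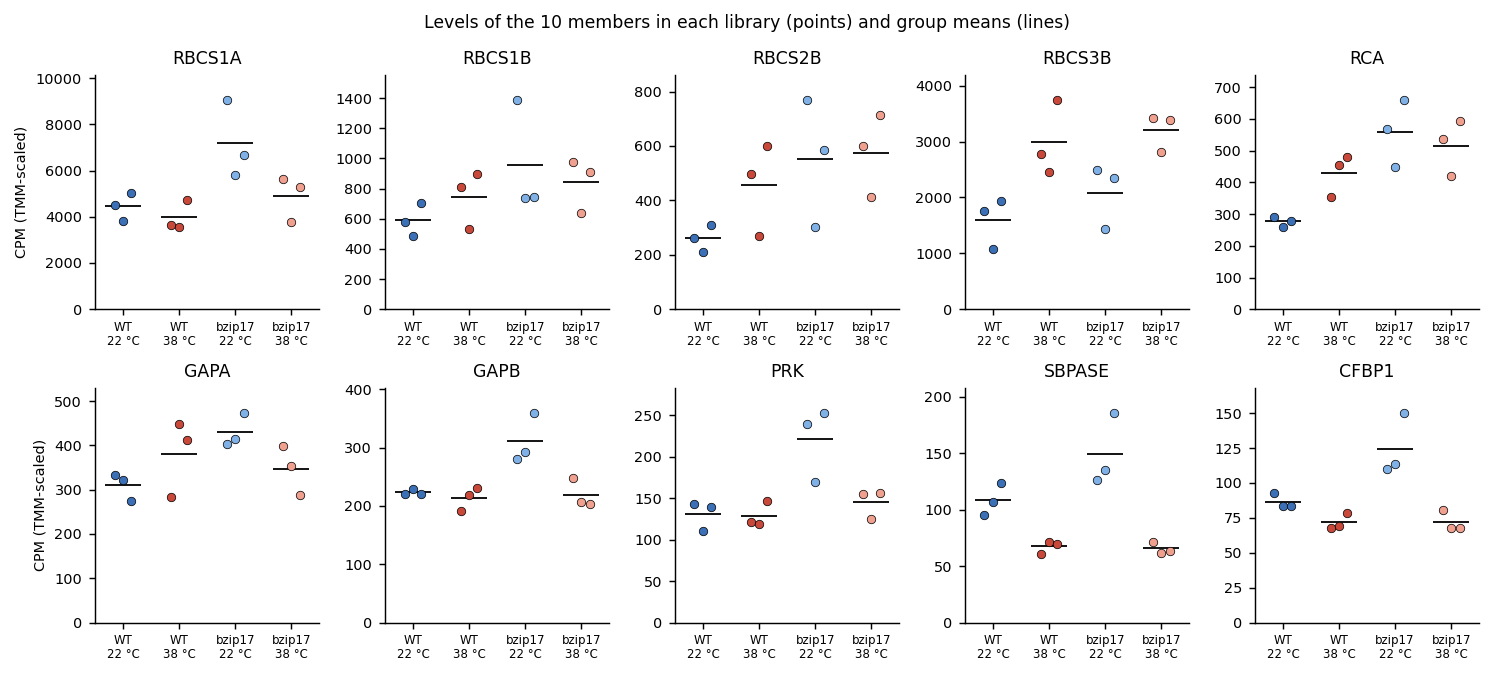
TMM-scaled CPM of each of the 10 members (1 panel per gene, vertical axes from 0) in the 12 libraries, with points for libraries in the order of their replicate number and lines for group means. SBPASE at 38 °C lies below every 22 °C library (61.1 to 71.6 CPM in WT, 61.8 to 71.6 CPM in bzip17), and RBCS3B at 38 °C (2450 to 3749 CPM in WT) lies above the 22 °C libraries of the same genotype.

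What did 6 h at 38 °C do to these transcripts in WT buds? The small subunit gene RBCS3B and Rubisco activase rose, and SBPASE fell, none by more than 2-fold. Of the 10 members, 3 passed an adjusted p of 0.05 (edgeR quasi-likelihood F-test, Benjamini-Hochberg over all genes tested), beside 26.6% of all genes tested, and 0 also passed the 2-fold limit, beside 12.8% of all genes. At an unadjusted p under 0.05 there were 4 of 10, beside 39.7% of all genes, and DESeq2 called 0 past 2-fold as well. The levels of WT at 22 °C and at 38 °C did not overlap for 4 of 10 members, beside 44.7% of all genes. The median change of the members was 0.14 log2, with 5 higher and 5 lower, against 0.02 over all genes. Scaling by library totals gave 9 higher and 1 lower, with medians of 0.52 log2 for the members and 0.41 over all genes.

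RBCS3B, the main small subunit gene of the tandem, was counted at 1753, 1081 and 1937 CPM in control WT buds, and heated WT buds gave 2786, 2450 and 3749 CPM. Every heated WT library was above every control library. The change was 0.91 log2 (1.88-fold, SE 0.29, edgeR adjusted p = 0.0374, n = 3). It missed the threshold without the libraries rich in ribosomal RNA (0.83 log2, adjusted p = 0.296, with 1 WT library left at 22 °C) and without any of 4 single libraries, WT at 22 °C replicate 1 or 2 or WT at 38 °C replicate 1 or 3 (0.70 to 0.99 log2, adjusted p = 0.0615 to 0.14).

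Control WT buds held 291.8, 258.8 and 279.7 CPM of RCA, compared with 353, 455.1 and 480.6 CPM after heat. The heated libraries were again all above the controls. RCA rose by 0.63 log2 (1.55-fold, SE 0.19, adjusted p = 0.0311, n = 3), but the call was lost in 5 of the 6 fits that left out a library, all except that without WT at 38 °C replicate 1 (highest adjusted p = 0.103). It was also lost without the 4 libraries rich in ribosomal RNA (0.69 log2, adjusted p = 0.268), with library totals (1.03 log2, adjusted p = 0.123) and with limma on the deposited FPKM (adjusted p = 0.075 and 0.0804 at the 2 pseudocounts).

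SBPASE, whose enzyme draws carbon into the regeneration of the acceptor, stood at 95.5, 106.8 and 123.2 CPM in WT controls, compared with 61.1, 71.6 and 69.6 CPM after heat. All heated WT libraries lay below all controls. SBPASE fell by 0.69 log2 (1.61-fold, SE 0.16, adjusted p = 0.0106, n = 3), and it kept its call in all 6 fits that left out a WT library. It lost it when the 4 libraries rich in ribosomal RNA were left out together (-0.43 log2, adjusted p = 0.333) and when libraries were scaled by their totals (-0.23 log2, adjusted p = 0.751), a scaling that raised the median of all genes to 0.41 log2, as well as with limma on FPKM (-0.17 log2 at either pseudocount).

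RBCS1A, the dominant small subunit gene, stood at 4513, 3818 and 5034 CPM in WT controls, compared with 3637, 3541 and 4740 CPM after heat. The ranges overlapped, and the difference was -0.17 log2 (95% confidence interval -0.76 to 0.43). RBCS2B stood at 0.81 log2 (interval 0.02 to 1.59, adjusted p = 0.115) and RBCS1B at 0.34 log2 (interval -0.31 to 0.98). Once replicate numbers entered the fit as a replicate block, RBCS2B passed at 0.74 log2 (adjusted p = 0.0266), although same-numbered WT libraries did not deviate together. Of the remaining members, GAPA (0.30 log2), GAPB (-0.06 log2), PRK (-0.03 log2) and CFBP1 (-0.27 log2) had intervals that included 0.

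In bzip17 buds under the same heat the transcripts of SBPASE, CFBP1, PRK and GAPB fell, SBPASE by more than 2-fold, and no member rose. Of the 10 members 4 passed an adjusted p of 0.05, beside 26.9% of all genes, and 1 also passed the 2-fold limit, beside 12.5% of all genes. The median change of the members was -0.41 log2, with 8 lower, against -0.05 over all genes. Levels did not overlap for 7 of 10 members, 6 lower and 1 higher, beside 43.1% of all genes. With library totals 0 of 10 passed, beside 6.28% of all genes, and with limma on FPKM 0 of 10 as well. DESeq2 passed 5 of 10, the same 4 and RBCS1A, beside 30.8% of all genes, and 1 past 2-fold.

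In bzip17 buds SBPASE measured 125.9, 135.1 and 185.5 CPM without heat, compared with 71.6, 61.8 and 63.7 CPM after it. Each heated library had less than the lowest control. The change was -1.18 log2 (2.27-fold lower, SE 0.17, adjusted p = 0.000444, n = 3), and its adjusted p stayed at or under 0.00378 when any 1 of the 6 libraries was left out, though the change came to -0.99 log2, short of 2-fold, without bzip17 at 22 °C replicate 3. Scaled by library totals it was -1.07 log2 with an adjusted p of 0.115.

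CFBP1, which yields fructose 6-phosphate for starch synthesis and for the regeneration branch, measured 109.8, 113.7 and 150.1 CPM without heat, compared with 80.6, 67.4 and 67.5 CPM after it. The groups did not overlap, and CFBP1 fell by 0.79 log2 (1.73-fold, SE 0.15, adjusted p = 0.00231, n = 3), a call kept in 13 of 16 alternative fits and lost with library totals (-0.68 log2, adjusted p = 0.415) and with limma on FPKM (highest adjusted p = 0.476). The gene shares bases with AT3G54060, which never exceeded an FPKM of 1.38, while CFBP1 had 20.4 to 109.2.

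PRK, which makes the CO2 acceptor with ATP, measured 239.5, 169.9 and 252.5 CPM without heat, compared with 154.5, 124.2 and 156.5 CPM after it. The 3 heated libraries were below the 3 controls. PRK fell by 0.60 log2 (1.52-fold, SE 0.18, adjusted p = 0.0275, n = 3), and only the fit without bzip17 at 22 °C replicate 2 among the 6 that left out a library kept the call (highest adjusted p = 0.112). GAPB fell from 280.5, 292.2 and 359.4 CPM to 248.7, 206.5 and 203.5 CPM, a change of -0.50 log2 (SE 0.15, adjusted p = 0.0244), and lost its call without bzip17 at 22 °C replicate 3 or bzip17 at 38 °C replicate 2 or 3 (highest adjusted p = 0.0934). Same-numbered bzip17 libraries deviated together, though the labels do not say what a replicate number shares. In a fit of these 6 libraries alone, with a replicate block, GAPB no longer passed (-0.52 log2, adjusted p = 0.103) while PRK, SBPASE and CFBP1 did. Without the 4 libraries rich in ribosomal RNA, of which bzip17 at 22 °C replicate 1 is the only bzip17 library, PRK (-0.53 log2, adjusted p = 0.143) and GAPB (-0.55 log2, adjusted p = 0.0692) did not pass.

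RBCS3B was higher in every heated bzip17 library (3414, 2811 and 3387 CPM) than in the controls (2488, 1434 and 2341 CPM), but the change of 0.62 log2 did not pass (interval -0.01 to 1.25, adjusted p = 0.137). RBCS1A went the other way, from 9063, 5812 and 6685 CPM to 5622, 3771 and 5268 CPM, also without overlap. It was also short of the threshold in edgeR (-0.56 log2, interval -1.15 to 0.04, adjusted p = 0.152), but passed narrowly in DESeq2 (-0.54 log2, adjusted p = 0.0482). RCA, which had risen in WT, stood at -0.12 log2 in bzip17 (interval -0.53 to 0.30), and GAPA at -0.31 log2 (interval -0.73 to 0.11).

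**Figure D2:**
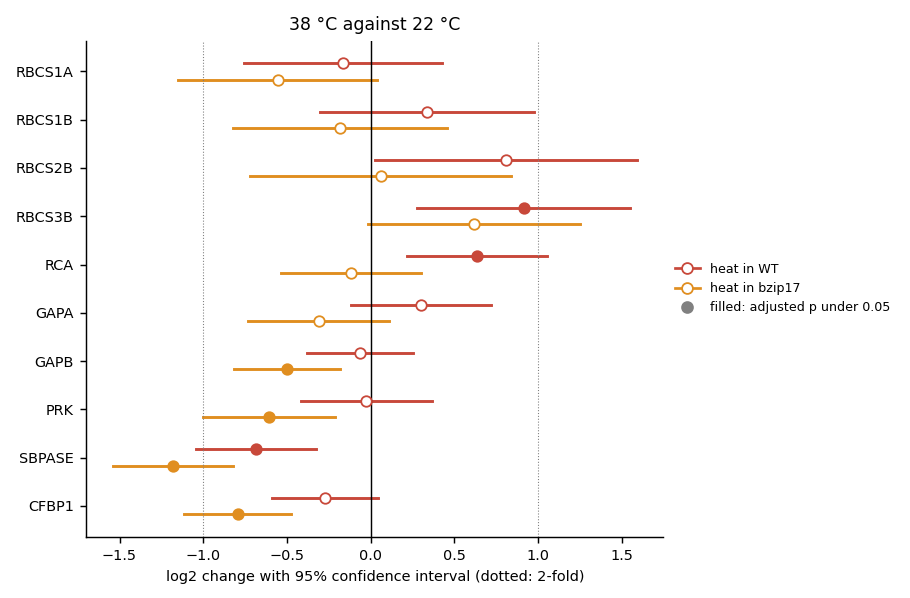
Log2 change at 38 °C against 22 °C for the 10 members in WT and in bzip17, with 95% confidence intervals from edgeR's fit over all 12 libraries; filled points passed an adjusted p of 0.05 and dotted lines mark 2-fold. SBPASE is at -0.69 in WT and at -1.18 in bzip17, and every bzip17 value lies to the left of the WT value of the same gene.

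Averaged over both genotypes, heat raised RBCS3B (0.77 log2, SE 0.21, adjusted p = 0.0101) and lowered SBPASE (-0.93 log2, SE 0.12, adjusted p = 7.63e-05), CFBP1 (-0.53 log2, SE 0.10, adjusted p = 0.0015) and GAPB (-0.28 log2, SE 0.10, adjusted p = 0.0432). The direction of RBCS3B, SBPASE and CFBP1 was the same in all 20 alternative fits, whereas GAPB came out at 0.04 log2 when the deposited FPKM values were tested instead of the counts. These 4 of 10 members passing compare with 43.8% of all genes in the same average, and 0 of 10 with 15.2% once more than 2-fold was asked for. RBCS3B missed the threshold in 1 of the 20 fits, that without the libraries rich in ribosomal RNA (0.80 log2, adjusted p = 0.0622). SBPASE and CFBP1 passed in 17 of 20, all except library totals and limma on FPKM (highest adjusted p = 0.131 and 0.654). GAPB passed in 6 of 20 only: it was lost in 8 of the 12 fits that left out a library (highest adjusted p = 0.101), without the libraries rich in ribosomal RNA (-0.26 log2, adjusted p = 0.232), with the replicate block (adjusted p = 0.0603), with no filter on low levels (adjusted p = 0.0755), with library totals (-0.02 log2, adjusted p = 0.966) and with limma on FPKM. PRK was at -0.32 log2 (adjusted p = 0.0625, and 0.0211 with the replicate block), RBCS1A at -0.36 log2 (adjusted p = 0.147) and RCA at 0.26 log2 (adjusted p = 0.142).

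The makeup of the small subunit message shifted from RBCS1A towards RBCS3B with heat, by a measure that does not depend on how libraries are scaled to one another. RBCS1A made up 61.3%, 65.9% and 60.8% of the summed FPKM of the 4 small subunit genes in WT at 22 °C and 44.8%, 50.2% and 45.4% at 38 °C. In bzip17 it made up 63.4%, 67.7% and 62.3% at 22 °C and 50.8%, 47.4% and 49.0% at 38 °C. All 6 heated libraries were below all 6 controls, in both genotypes.

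The difference was -15.8 percentage points in WT (group means 62.7% ± 2.8 and 46.8% ± 2.95, SD, n = 3) and -15.4 points in bzip17 (64.5% ± 2.87 and 49.0% ± 1.68, SD, n = 3). Averaged over genotypes it was -15.6 points, with p = 0.005 in an exact two-sided permutation test that exchanged temperatures within each genotype, the smallest p that its 400 arrangements allow, and 0.06 after Benjamini-Hochberg adjustment over the 12 share tests made. Within a genotype the exact permutation of 3 libraries against 3 cannot go below p = 0.10, which both comparisons reached. As shares of counts, the values in single libraries were 63.0% to 70.1% at 22 °C and 47.1% to 53.0% at 38 °C.

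The share of RBCS3B was higher after heat. It was 22.5% ± 2.95 and 35.9% ± 0.836 in WT and 19.1% ± 2.84 and 33.4% ± 2.49 in bzip17 at 22 °C and 38 °C (SD, n = 3). RBCS1B stayed between 8.8% and 12.6% in all libraries, and RBCS2B between 4.2% and 7.92%. Because reads of RBCS1B and RBCS3B can be exchanged, the 3 tandem copies were also summed: heat averaged over genotypes raised the sum by 0.57 log2 (SE 0.21, adjusted p = 0.0468), while all 4 small subunit genes summed stood at 0.03 log2 (interval -0.44 to 0.50). In WT alone the summed tandem was at 0.78 log2 (interval 0.12 to 1.44, adjusted p = 0.0753). These sums were not tested without the libraries rich in ribosomal RNA.

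**Figure D3:**
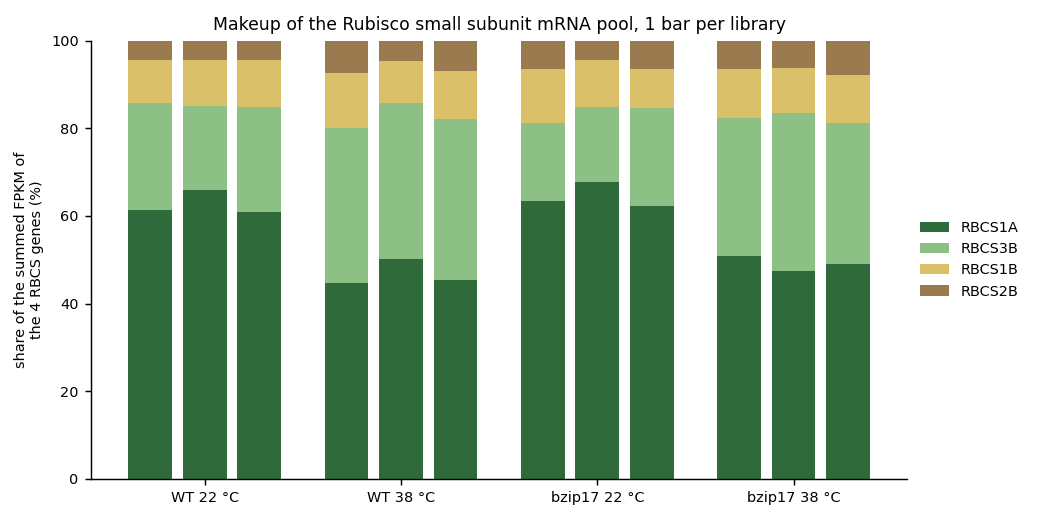
Share of each small subunit gene in the summed FPKM of the 4 RBCS genes, as stacked bars from 0 to 100%, with 1 bar per library in the order of replicate number within each group. RBCS1A takes 60.8% to 67.7% in the 22 °C libraries and 44.8% to 50.8% in the 38 °C libraries, and RBCS3B takes 17.1% to 24.4% and 31.6% to 36.8%.

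The genes GAPA and GAPB, whose products form the regulated glyceraldehyde-3-phosphate dehydrogenase heteromer of leaves, showed a smaller shift in share, which did not pass after adjustment. GAPA made up 63.4%, 61.9% and 58.8% of the summed FPKM of both in WT at 22 °C and 63.0%, 70.2% and 67.1% at 38 °C, and 62.3%, 62.0% and 60.2% against 64.8%, 66.3% and 62.0% in bzip17. The ranges overlapped in both genotypes. The average difference was 4.14 points with p = 0.025 in the exact permutation test (n = 3 per group), and 0.15 after adjustment over the 12 share tests. This share leaves out GAPA-2 (AT1G12900), a second gene of the GAPA subunit, and so is not the makeup of the 2 subunits. The mean FPKM of GAPA-2 was 95.07 and 135.5 in WT and 210.3 and 154.8 in bzip17 at 22 °C and 38 °C. That of GAPB was 103.1 and 128.8 in WT and 179.6 and 136.1 in bzip17.

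The loss of bZIP17 at 22 °C moved no member past the threshold. All 10 were nevertheless higher in bzip17 than in WT, by 0.39 log2 (RBCS3B) to 1.08 log2 (RBCS2B) with a median of 0.61, while the median of all genes was 0.02 and 53.1% of genes were higher. Of the 10, 0 passed an adjusted p of 0.05, beside 0.00965% of all genes (2 genes), and the share was 0.00965% with the 2-fold limit too. At an unadjusted p under 0.05, 9 of 10 were higher, beside 5.10% of all genes, and levels in bzip17 were above those in WT without overlap for 8 of 10, beside 5.53% of all genes. DESeq2 passed 2 of them, RCA (1.01 log2, adjusted p = 0.000584) and PRK (0.75 log2, adjusted p = 0.0377), of which RCA was past 2-fold, beside 0.537% of all genes past DESeq2's adjusted p.

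RCA had 569.9, 447.2 and 660.8 CPM in bzip17 at 22 °C, above the 258.8 to 291.8 CPM of WT at 22 °C. The difference was 1.02 log2 (2.02-fold, interval 0.59 to 1.44, edgeR adjusted p = 0.256, n = 3). PRK had 169.9 to 252.5 CPM against 110.4 to 143.2 CPM (0.75 log2, interval 0.36 to 1.15, adjusted p = 0.358), and RBCS1A 5812 to 9063 CPM against 3818 to 5034 CPM (0.69 log2, interval 0.10 to 1.28, adjusted p = 0.473). The other members without overlap were RBCS1B, GAPA, GAPB, SBPASE and CFBP1, at 0.46 to 0.70 log2 (adjusted p = 0.422 to 0.495). RBCS2B (1.08 log2, interval 0.30 to 1.87) and RBCS3B (0.39 log2, interval -0.24 to 1.02) overlapped with WT. All 10 stayed higher when any 1 library was left out, with medians of 0.52 to 0.71 log2, and also without the 4 libraries rich in ribosomal RNA, where the smallest change was 0.10 log2 and only 2 had an unadjusted p under 0.05.

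Other groups of transcripts also differed in level between these libraries, none with a gene past the threshold. Of 7 floral organ identity genes 7 were higher in bzip17 (median 0.40 log2), with sums of 287.6 to 846.9 CPM against 404.4 to 575.5 CPM in WT. Of the supporting genes of carbon fixation described further on, 11 of 11 for Rubisco assembly (median 0.41 log2), 9 of 9 of the thioredoxin system (0.20 log2) and 14 of 15 for photorespiration (0.47 log2) were higher. The 14 antenna protein genes, markers of green tissue, summed to 10390 to 11650 CPM in bzip17 at 22 °C and to 7934 to 8417 CPM in WT at 22 °C, and 14 of 14 were higher (median 0.51 log2, 0 past the threshold). The 4 of 5 tapetum markers that were tested summed to 42.9 to 225 CPM in bzip17 and 43.5 to 85.5 CPM in WT (4 of 4 higher, median 1.17 log2, 0 past the threshold). The 5 late pollen markers summed to 530.5 to 801.8 CPM in bzip17 and 958.8 to 1274 CPM in WT, with 4 of 5 lower (median -1.45 log2, 0 past the threshold). No defining marker of these lists that was measured was at 0 in all libraries of a group. The share of ribosomal RNA was 3.76% to 64.8% in WT and 1.43% to 20.7% in bzip17. The part of these differences in the members' levels was not tested.

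At 38 °C the genotypes were closer together. Of the 10 members 0 passed, beside 0.0145% of all genes (3 genes), with or without the 2-fold limit. No member had an unadjusted p under 0.05, DESeq2 passed none, and levels failed to overlap for 0 of 10, beside 11.8% of all genes. Changes ran from -0.14 log2 (GAPA) to 0.34 log2 (RBCS2B) with a median of 0.14. For SBPASE the difference was -0.04 log2 (interval -0.39 to 0.32) and for CFBP1 0.00 log2 (interval -0.32 to 0.32).

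Averaged over both temperatures all 10 members were higher in bzip17, by 0.17 to 0.71 log2, and 0 passed an adjusted p of 0.05, beside 0.0290% of all genes, or 0.0145% past 2-fold. Of the 10, 6 had an unadjusted p under 0.05 and were higher, beside 4.51% of all genes, and DESeq2 passed 1, RCA (adjusted p = 0.00268), beside 0.7% of all genes by that tool. RCA was at 0.64 log2 (interval 0.34 to 0.94, edgeR adjusted p = 0.238).

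**Figure D4:**
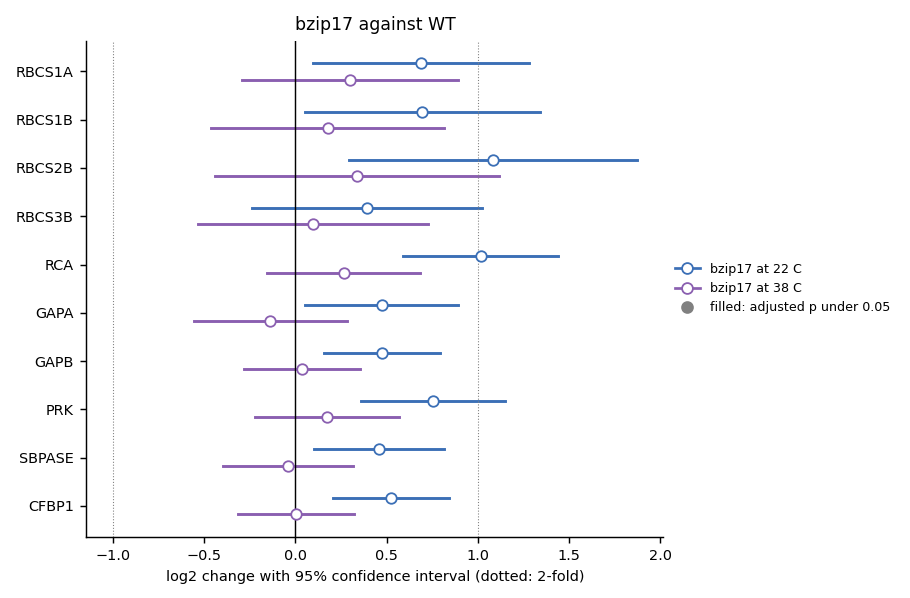
Log2 difference of bzip17 from WT for the 10 members at 22 °C and at 38 °C, with 95% confidence intervals; open points did not pass an adjusted p of 0.05, and dotted lines mark 2-fold. All 10 values at 22 °C lie above 0, between 0.39 and 1.08, and those at 38 °C between -0.14 and 0.34.

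The interaction asked whether the heat response differed between genotypes. It was below 0 for all 10 members, from -0.30 log2 (RBCS3B) to -0.75 log2 (RCA) with a median of -0.52, where the median over all genes was -0.05 and 43.3% of genes were above 0. None passed an adjusted p of 0.05, beside 0% of all genes, and DESeq2 passed none. Of the 10, 4 had an unadjusted p under 0.05 and were below 0 (RCA, CFBP1, PRK and GAPA), beside 2.25% of all genes. RCA, at -0.75 log2 (interval -1.34 to -0.16, adjusted p = 1), had risen in WT and not passed in bzip17, but these data do not show that its response differed. The interaction uses the same 22 °C libraries as the genotype difference at 22 °C, so the 2 patterns are not separate evidence.

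The other genes of carbon fixation were read beside the members. Of 16 further Calvin cycle genes, RBCL among them, 2 rose and 1 fell in heated WT, beside 26.6% of all genes in either direction. In heated bzip17 0 of them rose and 5 fell, beside 26.9% of all genes. The one past both the threshold and 2-fold was RPI3 (AT3G04790), a plastid ribose 5-phosphate isomerase, which fell by 1.23 log2 in bzip17 (SE 0.15, adjusted p = 0.000178) and by 0.68 log2 in WT. At 22 °C 13 of 16 were higher in bzip17 (median 0.38 log2, 0 past the threshold), and the interaction was below 0 for 16 of 16 (0 past the threshold). The large subunit gene RBCL, in the plastid genome, could not be read beside the small subunit: it had 20.8, 70.7 and 1146 CPM within WT at 22 °C, in the order of rising ribosomal RNA share (3.76%, 15.1% and 64.8%), and its level in the other libraries was 23.0 to 304.6 CPM.

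Among 11 genes of Rubisco folding and assembly, changes went in both directions. CPN60B2 (AT3G13470), a subunit of the plastid chaperonin that folds the large subunit, rose by 2.30 log2 in WT (SE 0.27, adjusted p = 0.000199) and by 1.78 log2 in bzip17 (SE 0.26, adjusted p = 0.000616). RBCX1 (AT4G04330), an assembly chaperone of the large subunit, fell by 1.15 log2 in WT (SE 0.28, adjusted p = 0.012) and by 1.18 log2 in bzip17 (SE 0.28, adjusted p = 0.00935). In this list 3 rose and 1 fell in WT, and 2 rose and 5 fell in bzip17, beside 26.6% and 26.9% of all genes in either direction.

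The thioredoxin system switches SBPASE, CFBP1, PRK and GAPB on in the light. Of its 9 genes 1 rose and 3 fell in WT and 0 rose and 5 fell in bzip17, beside 26.6% and 26.9% of all genes in either direction. TRXF1 (AT3G02730), a thioredoxin f that reduces the bisphosphatases, fell by 1.14 log2 in bzip17 (SE 0.16, adjusted p = 0.00041). In WT its mean level was also lower after heat (55.77 CPM at 22 °C, 31.02 CPM at 38 °C). Of 15 photorespiration genes, which recycle the product of Rubisco's oxygenation, 4 rose and 1 fell in WT and 0 rose and 3 fell in bzip17. The same shares of all genes, 26.6% and 26.9%, stand beside these counts. GLDP1 (AT4G33010), a glycine decarboxylase P protein, fell by 1.33 log2 in bzip17 (SE 0.26, adjusted p = 0.00337). In WT its mean level was also lower after heat (216.9 CPM at 22 °C, 134.7 CPM at 38 °C). The medians of the 3 supporting lists in bzip17 (-0.24, -0.55 and -0.24 log2 for assembly, thioredoxin and photorespiration) stood beside -0.41 for the members and -0.05 over all genes.

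Of the antenna genes, 8 of 14 rose and 1 fell in heated WT (median 0.51 log2), and in bzip17 2 rose and 1 fell (median 0.08 log2). Of all genes 26.6% passed in WT and 26.9% in bzip17, in either direction. No antenna or late pollen gene passed the interaction. The antenna gene that fell in bzip17 was LHCB1.3 (AT1G29930, -1.10 log2, SE 0.20, adjusted p = 0.00233), one of several closely similar LHCB1 copies whose reads can be exchanged. In WT its mean level was also lower after heat (2754 CPM at 22 °C, 1796 CPM at 38 °C). Late pollen markers fell in heated WT for 3 of 5, SPIK (-2.04 log2), VGD1 (-1.26 log2) and CPK34 (-2.73 log2), and for 0 of 5 in bzip17. Their summed level was 958.8 to 1274 CPM in WT at 22 °C, 424.1 to 912.4 CPM in WT at 38 °C, 530.5 to 801.8 CPM in bzip17 at 22 °C and 378.7 to 1037 CPM in bzip17 at 38 °C. Their part in the members' heat changes was not tested.

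**Figure D5:**
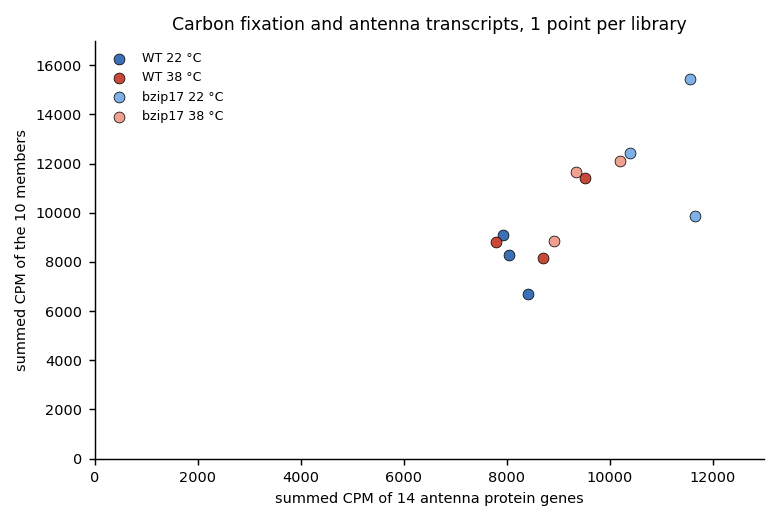
Summed CPM of the 10 members against summed CPM of 14 antenna protein genes, 1 point per library and 1 colour per group, both axes from 0. The 3 bzip17 libraries at 22 °C lie furthest right (10390 to 11650 CPM), while the WT libraries at 22 °C lie at 7934 to 8417 CPM.

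Within a group the members tended, though not in every pair, to move together from library to library. All 10 members were above their group mean in WT at 38 °C replicate 3 and in bzip17 at 38 °C replicate 1, and 0 of 10 in bzip17 at 22 °C replicate 2, which deviated by -0.29 log2 on average. Over the 45 pairs of members the correlation of log2 CPM across the 12 libraries had a median of 0.58, with a range from -0.57 to 0.94. For deviations from the group means the median was 0.51, with a range from -0.39 to 0.94. In these deviations GAPA did not follow RBCS1A, RBCS1B, RBCS2B or RBCS3B (r = -0.06, -0.39, -0.34 and -0.06). These are descriptions over libraries that differ in depth and tissue makeup, which all genes of a library share. PRK followed the mean standardised profile of the members most closely (Pearson r = 0.961 over 12 libraries) and RBCS3B least (r = 0.314). That profile includes each member itself, which raises the members' r beside that of genes outside the list.

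Outside the list, the 5 genes whose log2 CPM followed that profile most closely were PSAG (AT1G55670, a photosystem I subunit, r = 0.955), ZKT (AT1G55480, a protein with a PDZ domain, r = 0.954), OHP2 (AT1G34000, one-helix protein 2, r = 0.93), GAPA-2 (AT1G12900, the second gene of the GAPA subunit, r = 0.93) and PDX1.1 (AT2G38230, of vitamin B6 synthesis, r = 0.911), each over 12 libraries.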

How the data were processed

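RNA-seq of flower buds was available for 12 libraries in 4 groups of 3. The authors trimmed reads with cutadapt, mapped them to the TAIR10 genome with HISAT2 and estimated expression with StringTie and ballgown, with versions and strandedness not given in the sources used here. Per gene, the deposited table holds counts, which were used as they are, and the authors' FPKM values, which served for the filter, for levels per length and for shares.

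Counts were tested in R 4.3.3 with edgeR 4.0.16 (TMM, quasi-likelihood F-test, 4 group means, all 12 libraries) over 20715 genes with FPKM of at least 1 in 3 libraries, with Benjamini-Hochberg adjustment. A gene was called at adjusted p under 0.05 and more than 2-fold (no fold limit for the interaction), and "rose" or "fell" means adjusted p under 0.05. The code was tested on simulated data, with 200 of 20715 genes changed in each comparison. There an adjusted p under 0.05 found 31% of 2-fold and 85% of 4-fold changes for heat in WT. It found 27% and 68% for bzip17 at 22 °C, and 70% and 92% for heat averaged over genotypes. A true 2-fold change can thus be missed. Far more genes passed for heat in the deposited data (26.6% in WT), so the rates of the heat tests may differ from the simulated ones. Shares were compared by exact two-sided permutation over libraries. DESeq2 1.42.0, limma 3.58.1 on log2(FPKM + 0.1) or log2(FPKM + 1), other scalings and filters, left-out libraries and a replicate block served as alternatives. Depth was 38584506 to 71779333 counts per library, of which 1.43% to 64.8% fell on 15 ribosomal RNA loci.

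Named genes were all members, the mutated gene, RBCL, of each other list the genes past both limits (at most 3 a comparison), and the 5 closest to the members' mean profile. Members and lists were chosen with earlier results of these data known. For the paired check, deviations of same-numbered libraries correlated at r = 0.223, 0.266 and 0.268 between the bzip17 groups. In the other comparisons r was not above 0.1 for every pair. The labels do not say what a replicate number shares. The block fit of the bzip17 libraries thus assumes a pairing that was read from these same data. Motifs and coding sequences came from the RefSeq TAIR10.1 assembly with Python 3.11.15 and Biopython 1.88.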

Additional observations from a re-analysis of the deposited data

How the results depend on the processing

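Counts of the 10 members past both limits changed as follows. For heat in WT the count of 0 became 1 with library totals, 1 with limma on log2(FPKM + 0.1), 1 with limma on log2(FPKM + 1) (RBCS3B in each) and 3 with no fold limit, and 0 to 2 when a library was left out (1 without WT at 22 °C replicate 3, 2 without WT at 38 °C replicate 2). For heat in bzip17 the count of 1 became 0 with library totals and with limma at either pseudocount, 4 with no fold limit, and 0 to 1 with a library left out (0 without bzip17 at 22 °C replicate 3). For heat averaged over genotypes 0 became 1 with library totals, 1 with limma at either pseudocount and 4 with no fold limit. The share of all genes past the adjusted p alone also moved. For heat in WT it was 26.6% in the main fit, 8.62% with library totals, and 10.7% and 12.1% with limma. In bzip17 these shares were 26.9%, 6.28%, 6.31% and 7.7%, and in the average 43.8%, 20.9%, 21.6% and 23.4%. Shares of all genes past both limits were not counted in the alternative settings. For bzip17 at 22 °C 0 became 1 with DESeq2 and 2 at an unadjusted p with 2-fold, and for the interaction 0 became 4 at an unadjusted p. GAPB averaged over genotypes turned to 0.040 and 0.038 log2 with limma at the smaller and the larger pseudocount. Each tandem gene alone differed from their sum: averaged over genotypes RBCS1B (0.076 log2) and RBCS2B (0.433 log2) did not pass where the sum (0.57 log2) did, in WT RBCS3B passed (0.913 log2) where the sum did not, and in bzip17 RBCS1B was at -0.184 log2 against 0.36. With the replicate block the GAPA share difference of 4.14 points had p = 0.0625 in an exact sign-flip permutation test, and it was 3.29 to 5.09 points with a library left out. The replicate block over all 12 libraries left the counts past both limits at 0, 1 and 0 for heat in WT, in bzip17 and averaged. The RBCS1A share kept its direction and size in the settings tried for it, which were shares of counts, the replicate block and single libraries left out. Neither the shares nor the summed tandem were tested without the libraries rich in ribosomal RNA. Fits of only the groups compared were not made for the interaction and the averages. The cause of these changes was not tested. Ribosomal RNA limits depth, and leaving out the 4 libraries richest in it leaves 1 WT library at 22 °C, assumed to vary like the others.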
